A study of Mus musculus with 9 samples.

Results

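A set of 8 genes that make, sense, clear or carry adenosine was followed in leukemic and normal bone marrow progenitors of the mouse, and all 8 of them were found among the 16537 genes that the deposited expression table lists. They are Entpd1 and Nt5e, which make adenosine outside the cell, Adora2a and Adora2b, which sense it, Ada and Adk, which convert it, Slc29a1, which carries it across the membrane, and Dpp4, which in human cells anchors adenosine deaminase to the surface. The members were taken by gene symbol and their 14 transcripts were summed per gene. The set was chosen by the measured rise of Nt5e and Adora2b in the leukemic cells of these same libraries, so the levels of these 2 genes are given as a description, with no test, and only the other 6 were tested.

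The 9 RNA-seq libraries were made of cells sorted from the bone marrow of FVB/NJ mice, an inbred strain. Early LP and median LP are leukemic progenitors of mice with the genotype PML-RAR, a fusion oncoprotein that joins PML to a retinoic acid receptor and drives acute promyelocytic leukemia, taken in the phases the labels call early and median (3 libraries each). HPC are hematopoietic progenitor cells of wild-type mice at postnatal day 42 (3 libraries). The sources used here do not give the age of the leukemic mice, the promoter behind PML-RAR or the markers of the sort. Nothing in the labels ties each library to its own animal, so p-values measure the spread between libraries, which may be technical.

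ATP that leaves a cell is cut to AMP at its surface by CD39, the product of Entpd1, and AMP is cut to adenosine by CD73, the product of Nt5e. Adenosine then acts on G protein-coupled receptors, of which those encoded by Adora2a and Adora2b raise cyclic AMP, and in immune cells this dampens activation. The Adora2b receptor needs more adenosine than the Adora2a receptor does. The signal ends when adenosine enters cells through carriers such as ENT1, the product of Slc29a1, and is deaminated to inosine by Ada or phosphorylated to AMP by Adk.

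The promoters of the 2 genes that defined the set are shown first, since both genes were low in HPC. Each line gives the 250 bases before the RefSeq start on GRCm38.p6 (mm10), read 5′ to 3′ on the strand of the gene, which is the plus strand for both. For Nt5e these are chr9:88327359-88327608, and for Adora2b chr11:62248734-62248983. Another annotation, GENCODE, starts the matching Nt5e model further upstream, at 88327197, so the Nt5e window lies inside that model. Which start the cells use was not tested. Capitals mark the GC box GGGCGG, the hypoxia-inducible factor core letters ACGTG or GCGTG, and the core TGACG of the cyclic AMP response element, each on either strand.

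Nt5e promoter: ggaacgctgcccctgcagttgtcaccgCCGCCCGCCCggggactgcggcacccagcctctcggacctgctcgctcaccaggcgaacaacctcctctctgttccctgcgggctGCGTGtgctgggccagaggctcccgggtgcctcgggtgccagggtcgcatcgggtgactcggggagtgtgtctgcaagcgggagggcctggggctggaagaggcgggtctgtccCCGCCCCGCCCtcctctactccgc

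Adora2b promoter: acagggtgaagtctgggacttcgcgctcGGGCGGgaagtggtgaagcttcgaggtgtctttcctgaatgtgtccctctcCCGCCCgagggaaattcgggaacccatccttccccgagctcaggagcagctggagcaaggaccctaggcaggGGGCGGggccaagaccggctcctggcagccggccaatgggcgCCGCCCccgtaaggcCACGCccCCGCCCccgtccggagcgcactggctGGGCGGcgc

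The Nt5e window held 4 GC boxes, and the Adora2b window held 6. In Nt5e, the pair that starts 223 and 219 bases upstream shares letters, as does the pair at 24 and 19. At least 1 GC box was found in 32.7% of the 32851 promoter windows of this length in the RefSeq table, and at least 4 in 4.09%. Each of the 2 windows also held 1 GCGTG, 138 bases upstream in Nt5e and 42 bases upstream in Adora2b, a match that 28.2% of all windows have. ACGTG (16.6% of windows), TGACG (17.8%), the full site TGACGTCA (1.55%) and the retinoic acid response core AGGTCA (14.02%) were in neither. The GC content was 72.0% for Nt5e and 69.6% for Adora2b, against a median of 52.4%. A letter match is a description of the window and says nothing of binding.

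Levels are counts per 1 M counts (CPM) unless a sentence says FPKM, the level per transcript length, and a change is on the log2 scale with its standard error (SE), first group minus second. A gene was called at an adjusted p under 0.05 in edgeR's quasi-likelihood test over all 12837 genes tested. The libraries held 20.6 to 28.4 M recovered fragments. Log2 CPM correlated across genes at r = 0.988 to 0.991 within groups, 0.981 to 0.986 between the 2 LP phases and 0.742 to 0.775 between LP and HPC. The slope of log2 CPM on log2 gene length was 0.227 to 0.342 in LP and 0.389, 0.411 and 0.209 in HPC, with HPC 3 apart from the other HPC libraries. Stem and progenitor markers (Cd34, Kit, Eng, Flt3, Meis1 and Mecom) summed to 256 to 258 CPM in early LP and 240 to 256 in median LP, against 887 to 975.1 in HPC. Kit gave nearly all of the LP sums, at 251 CPM in early LP and 247 in median LP, against 437 in HPC. The others fell far more, such as Cd34 at 3.49 CPM in early LP and 1.44 in median LP, against 272 in HPC. The median log2 change of the 6 against HPC was -6.17 in early LP and -7.42 in median LP. Promyelocyte markers summed to 34607 to 39610 CPM in early LP and 28414 to 30400 in median LP, against 13117 to 14765 in HPC. Of these 6, 5 were called higher in early LP and 4 in median LP, against 35.3% and 36.0% of all tested genes. Prtn3 had 1347 CPM in early LP and 1045 in median LP, against 1197 in HPC. Neutrophil markers summed to 8870 to 9155 CPM in early LP and 11016 to 12213 in median LP, against 2718 to 4968 in HPC. Of these 7, 2 were called higher and 2 lower in early LP, and 2 higher and 4 lower in median LP. Of all tested genes, 37.9% and 37.7% were called lower. In such bulk samples, fewer cells of a type and less RNA per cell cannot be told apart.

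The gene for the extracellular step from AMP to adenosine was abundant in LP and scarce in HPC. Nt5e (mm10, chromosome 9, 88327609 to 88372089) stood at 157, 148 and 150 CPM in early LP and 250.3, 242 and 263 CPM in median LP, against 1.01, 1.47 and 1.17 CPM in HPC. All LP libraries lay far above all HPC libraries, and every median LP library lay above every early LP library. The log2 change was 6.96 (SE 0.11) for early LP against HPC, 7.69 (SE 0.11) for median LP against HPC and 0.73 (SE 0.07) for median LP against early LP. Ranked by FPKM, Nt5e stood at percentile 85.1 of genes in early LP and 91.3 in median LP, against 27.8 in HPC. In fragments, it had 10052 in early LP and 18591 in median LP, against 96 in HPC, so the HPC level is low but counted.

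Entpd1 (chromosome 19, 40659794 to 40741602), the enzyme one step before Nt5e, did not share this pattern. It stood at 3.48, 4.52 and 3.66 CPM in early LP and 2.36, 2.07 and 2.33 CPM in median LP, against 4.19, 4.98 and 5.42 CPM in HPC. The median LP libraries were the lowest with no overlap, and early LP overlapped HPC. Entpd1 fell in median LP, with a log2 change of -1.11 (SE 0.17, adjusted p = 9.07e-05), and was not called in early LP at -0.32 (SE 0.16, adjusted p = 0.0878). Without early LP 2 it was called there too, at -0.44 (adjusted p = 0.0447), and so it was with upper quartile scaling (adjusted p = 0.0456). Within each library, the FPKM of Nt5e over that of Entpd1 was 43.6 ± 7.005 in early LP and 125 ± 5.97 in median LP, against 0.275 ± 0.0458 in HPC (SD, n = 3 each). Nt5e was thus above Entpd1 per length in LP and below it in HPC, a ratio that holds Nt5e and is a description.

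Markers of 4 other kinds of bone marrow cell that can carry CD73 had lower sums in LP than in HPC, each carried mostly by 1 or 2 genes, and some single markers were higher in LP. T cell markers summed to 5.75 to 7.25 CPM in early LP and 7.21 to 8.48 in median LP, against 12.98 to 16.9 in HPC, with Cd8a at 0 in early LP and HPC, Cd3g at 0 in early LP and Cd3e at 0 in HPC. Cd4 gave 8.22 CPM of the HPC sum, while Lck was called higher in median LP (5.77 CPM in median LP, against 3.48 in HPC). Of 4 tested T cell markers, 2 were lower in early LP, and 1 was higher and 3 lower in median LP. B cell markers summed to 0.435 to 0.878 CPM in early LP and 1.45 to 2.90 in median LP, against 14.2 to 16.9 in HPC, with Pax5 at 0 in early LP and HPC. Cd79b gave 14.8 CPM of the HPC sum, and Cd79a was called higher in median LP (0.733 CPM in median LP, against 0.310 in HPC). Mesenchymal stromal markers summed to 12.9 to 14.1 CPM in early LP and 10.3 to 11.96 in median LP, against 21.1 to 26.1 in HPC, with Col3a1 at 0 in early LP. Endothelial markers summed to 12.1 to 16.0 CPM in early LP and 11.2 to 13.4 in median LP, against 55.1 to 65.2 in HPC. Of 5 tested stromal markers, 2 were higher and 3 lower in each phase. The higher ones were Col1a1 (2.95 CPM in early LP and 2.69 in median LP, against 0.135 in HPC) and Lepr (1.32 CPM in early LP and 1.28 in median LP, against 0.265 in HPC). All 4 tested endothelial markers were lower. Monocyte and macrophage markers (8 genes) had a higher sum in LP, at 136 to 141 CPM in early LP and 190 to 205 in median LP, against 87.4 to 105.4 in HPC. Of the 7 tested, 4 were higher and 3 lower in early LP, and 4 higher and 1 lower in median LP. For scale, early LP had 35.3% of all tested genes called above HPC and 37.9% called below it. In median LP these shares were 36.0% and 37.7%. Counts of called markers are to be read beside these shares, since a call against HPC was common for genes of any kind. Emr1, the F4/80 antigen of macrophages, had 34.8 CPM in early LP and 62.3 in median LP, against 4.82 in HPC. Csf1r, the receptor for macrophage colony-stimulating factor, had 17.1 CPM in early LP and 21.7 in median LP, against 57.9 in HPC. The part of these markers' cells in the level of Nt5e or Adora2b was not tested.

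Among the receptors, the gene with the highest FPKM differed between LP and HPC. Adora2b (chromosome 11, 62248984 to 62266452) stood at 2.35, 2.72 and 2.79 CPM in early LP and 7.57, 5.89 and 4.97 CPM in median LP, against 0.168, 0.209 and 0.273 CPM in HPC. The 3 groups did not overlap, and median LP 1 was the highest library. The log2 change was 3.56 (SE 0.30) for early LP against HPC, 4.79 (SE 0.27) for median LP against HPC and 1.23 (SE 0.19) for median LP against early LP. The HPC level rests on 4, 5 and 8 fragments, against 46 to 75 in early LP and 123 to 197 in median LP. Scaled for depth, these gave a ratio of 12.2 (exact 95% counting interval 7.42 to 21.5) for early LP over HPC and 28.7 (17.7 to 49.6) for median LP over HPC, intervals that cover counting error only. They show how few fragments were counted and are no test of the rise, by which Adora2b was chosen.

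Adora2a (chromosome 10, 75316943 to 75334788), the receptor with the higher affinity, moved the other way. It stood at 0.522, 0.544 and 0.791 CPM in early LP and 0.621, 0.571 and 0.615 CPM in median LP, against 2.18, 3.18 and 3.63 CPM in HPC. Every HPC library was above every LP library, and the LP phases overlapped. It fell by 2.27 on the log2 scale in early LP (SE 0.26, adjusted p = 8.39e-06) and by 2.31 in median LP (SE 0.26, adjusted p = 7.52e-06), and the change between the phases was -0.04 (adjusted p = 0.971).

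Of the FPKM summed over the 4 adenosine receptors, Adora2b made up 78.8 ± 5.22% in early LP and 87.1 ± 4.20% in median LP, against 6.04 ± 0.625% in HPC, and Adora2a made up 14.3 ± 2.13% in early LP and 6.95 ± 0.978% in median LP, against 66.7 ± 6.001% in HPC (SD, n = 3 each). The third was Adora3, an inhibitory receptor that lowers cyclic AMP, with 1 to 5 fragments per library in early LP and 4 to 12 in median LP, against 12 to 19 in HPC. Its share was 5.84 ± 4.09% in early LP and 5.94 ± 3.23% in median LP, against 26.3 ± 5.95% in HPC. Adora3 fell in early LP (log2 -1.76, SE 0.50, adjusted p = 0.00749) and was not called in median LP (-0.95, SE 0.45, adjusted p = 0.0755), where it passed without median LP 3 (-1.44, adjusted p = 0.0266). Adora1, the other inhibitory receptor, had 2 or 3 fragments per library in early LP and HPC and was at 0 in median LP, too few for the filter, and its locus is shared with another gene. All these receptor levels were low, since even Adora2b in median LP reached only 3.32 FPKM, percentile 45.9 of genes.

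**Figure D1:**
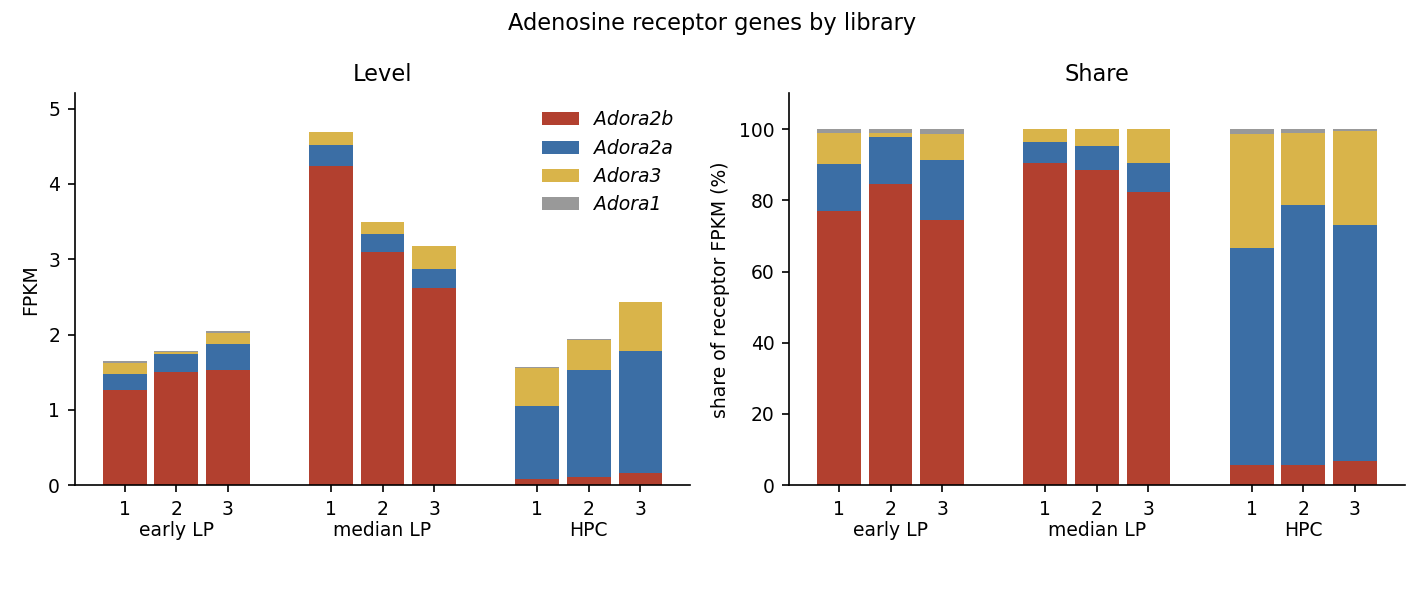
FPKM of the 4 adenosine receptor genes in each library (left, stacked) and the share of each gene in their sum in percent (right), with libraries 1 to 3 of early LP, median LP and HPC along the axis. Adora2b (red) makes up 74.6 to 84.6% in early LP and 82.4 to 90.4% in median LP, against 5.62 to 6.76% in HPC, where Adora2a (blue) makes up 60.9 to 72.9%.

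The genes that clear adenosine inside the cell were level or lower in LP. Adk (chromosome 14, 21052574 to 21448569), the kinase that returns adenosine to AMP, stood at 52.8, 53.4 and 53.4 CPM in early LP and 56.3, 45.0 and 41.4 CPM in median LP, against 100.2, 104 and 112 CPM in HPC. All LP libraries lay below all HPC libraries. It fell by 0.99 (SE 0.10, adjusted p = 2.25e-06) in early LP and by 1.15 (SE 0.10, adjusted p = 6.09e-07) in median LP. Ada (chromosome 2, 163726584 to 163750177), the deaminase, stood at 14.8, 17.6 and 15.5 CPM in early LP and 12.04, 12.6 and 12.6 CPM in median LP, against 15.7, 15.4 and 18.3 CPM in HPC. Early LP overlapped HPC and median LP lay below both. Ada fell in median LP against HPC by 0.41 (SE 0.10, adjusted p = 0.00306) and was not called in early LP at -0.05 (adjusted p = 0.684), a value that turned to 0.01 without early LP 1 and to 0.04 without HPC 3.

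The fall of Adk was uneven between its transcripts, which begin at starts 23.6 kb apart. NM_134079, from the upstream start, had 25.2 ± 0.702 FPKM in early LP and 22.1 ± 4.19 in median LP, against 43.7 ± 3.94 in HPC. NM_001243041, from the downstream start, had 1.18 ± 0.149 FPKM in early LP and 0.840 ± 0.239 in median LP, against 10.6 ± 2.10 in HPC (SD, n = 3 each). The downstream transcript made up 4.45 ± 0.597% of Adk in early LP and 3.71 ± 1.18% in median LP, against 19.5 ± 2.85% in HPC. It was 9.03-fold higher in HPC than in early LP and 12.6-fold higher than in median LP, where the upstream one was 1.73-fold and 1.98-fold higher. The 2 share most of their sequence, so the split between them is the estimate of the authors' quantification and was not tested here. The windows before the 2 starts, 250 bases each on the plus strand of GRCm38.p6 with the same letters in capitals, are chr14:21052324-21052573 and chr14:21075902-21076151.

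Adk upstream promoter: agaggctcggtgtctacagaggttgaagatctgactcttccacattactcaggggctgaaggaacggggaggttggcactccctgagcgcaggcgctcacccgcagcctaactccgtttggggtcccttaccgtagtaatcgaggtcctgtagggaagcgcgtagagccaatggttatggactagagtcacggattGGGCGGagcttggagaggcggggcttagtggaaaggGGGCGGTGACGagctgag

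Adk downstream promoter: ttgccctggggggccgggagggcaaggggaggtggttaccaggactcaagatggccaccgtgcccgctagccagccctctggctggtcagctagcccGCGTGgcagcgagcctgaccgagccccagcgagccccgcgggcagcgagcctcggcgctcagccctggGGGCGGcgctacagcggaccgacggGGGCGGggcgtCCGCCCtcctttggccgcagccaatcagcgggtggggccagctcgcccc

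The upstream window held 2 GC boxes and 1 TGACG, 12 bases before the start, and had a GC content of 58.8%. The downstream window held 3 GC boxes and 1 GCGTG, with a GC content of 75.2%, and neither held the other letters searched.

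**Figure D2:**
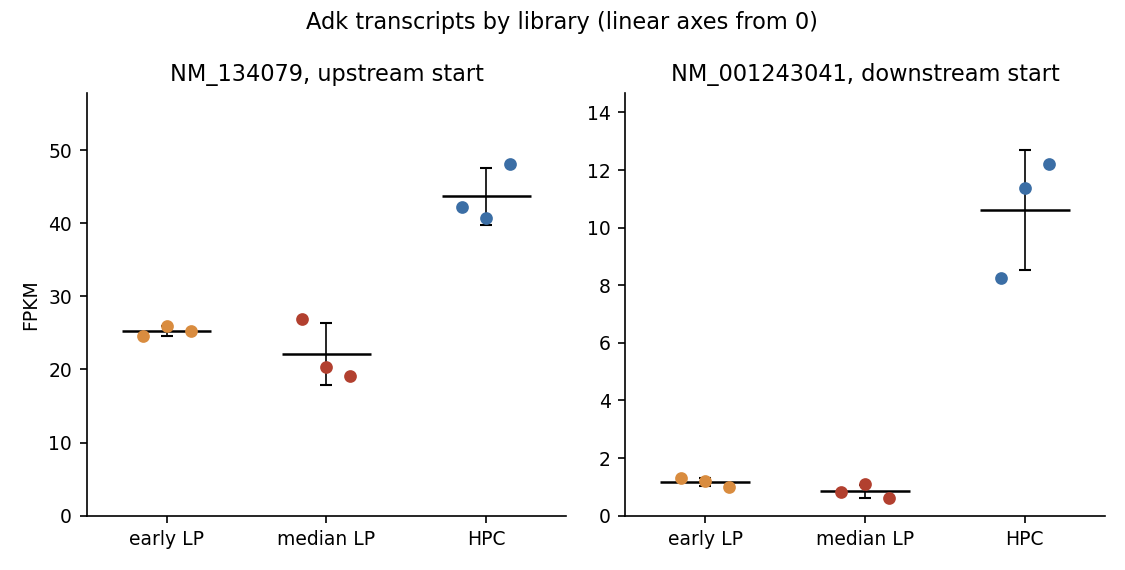
FPKM of the Adk transcripts from the upstream start (left) and the downstream start (right) in each library of early LP, median LP and HPC, on linear axes from 0, with 1 point per library, a bar at the mean and a whisker of 1 SD. Means are 25.2 FPKM in early LP and 22.1 in median LP, against 43.7 in HPC on the left, and 1.18 in early LP and 0.840 in median LP, against 10.6 in HPC on the right, so the fold between LP and HPC is larger on the right, and the difference in FPKM is larger on the left.

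Slc29a1 (chromosome 17, 45585200 to 45599603), the carrier that lets adenosine run down its gradient, stood at 77.0, 82.8 and 83.5 CPM in early LP and 102, 104 and 96.9 CPM in median LP, against 99.5, 103 and 113 CPM in HPC. Early LP was below both other groups, and median LP overlapped HPC. It fell by 0.38 (SE 0.07, adjusted p = 0.00032) in early LP and was not called in median LP at -0.06 (adjusted p = 0.412). Its transcript NM_001199116 made up 64.0% of its FPKM in early LP and 63.2% in median LP, against 66.9% in HPC.

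Dpp4 (chromosome 2, 62330073 to 62412231), a surface peptidase also known as CD26, had the largest change of the 6 tested members. It stood at 0.392, 0.962 and 0.375 CPM in early LP and 0.290, 1.05 and 0.483 CPM in median LP, against 59.5, 66.2 and 78.6 CPM in HPC. It fell by 6.87 (SE 0.28, adjusted p = 7.21e-10) in early LP and by 6.81 (SE 0.27, adjusted p = 6.98e-10) in median LP, with no overlap. Both deposited transcripts were lower, NM_010074 at a mean of 0.0895 FPKM in early LP and 0.0904 in median LP, against 10.3 in HPC and NM_001159543 at 0.00151 FPKM in early LP and 0.000857 in median LP, against 1.41 in HPC. Erythroid markers were lower in LP along with Dpp4 and Adk, at a sum of 12.5 to 18.9 CPM in early LP and 139 to 212 in median LP, against 2603 to 3043 in HPC. All 6 tested were lower in early LP, and 5 were lower and 1 higher in median LP. The exception was Hba-a1, a globin gene, which had 3.76 CPM in early LP and 156 in median LP, against 26.3 in HPC. Also lower were megakaryocyte markers at 1.97 to 3.12 CPM in early LP and 1.19 to 2.07 in median LP, against 118 to 152 in HPC. Their part in these results was not tested.

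**Figure D3:**
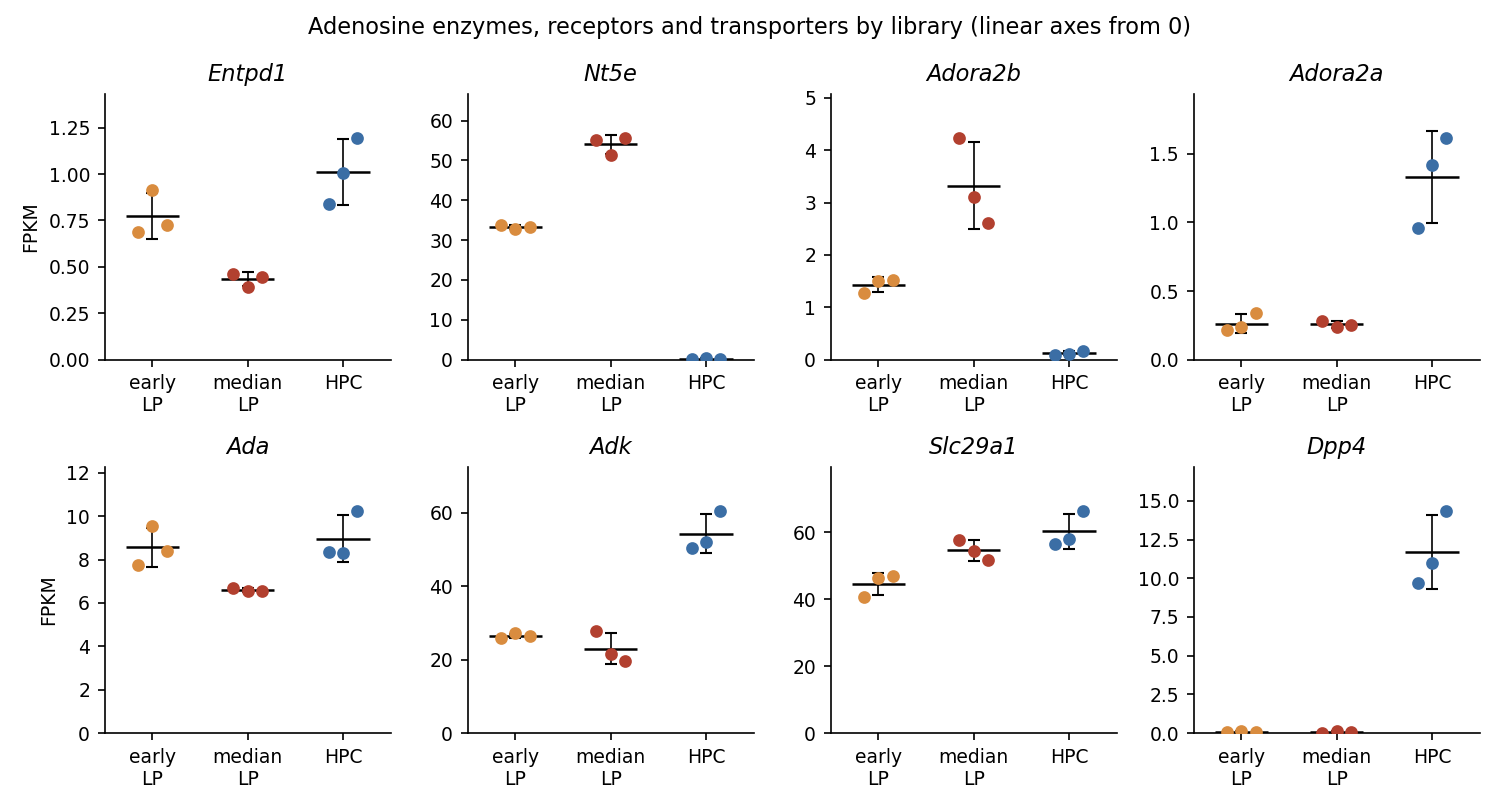
FPKM of the 8 genes in each library of early LP, median LP and HPC, each panel on its own linear axis from 0, with 1 point per library, a bar at the mean and a whisker of 1 SD. Nt5e (33.3 and 54.0 FPKM in early and median LP, against 0.276 in HPC) and Adora2b (1.43 and 3.32 in early and median LP, against 0.122 in HPC) are high in LP, and Dpp4 (0.0910 and 0.0913 in early and median LP, against 11.7 in HPC) is high in HPC.

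Against HPC, 0 of the 6 tested members rose, 4 fell and 2 were not called in early LP, and 0 rose, 5 fell and 1 was not called in median LP. All 6 had negative log2 changes in both comparisons in edgeR, so 0 were higher at an unadjusted p under 0.05, and DESeq2 and limma called 0 higher as well. Across all genes tested, 73.2% were called in early LP against HPC (35.3% higher and 37.9% lower) and 73.8% in median LP against HPC (36.0% higher and 37.7% lower), so a call against HPC sets no gene apart by itself. Both comparisons share the HPC libraries.

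The order of the members by FPKM also differed. In early LP it ran Slc29a1 (44.6), Nt5e (33.3), Adk (26.4), Ada (8.56), Adora2b (1.43), Entpd1 (0.775), Adora2a (0.264) and Dpp4 (0.0910), with no overlap between neighbours. In median LP Slc29a1 (54.6) and Nt5e (54.0) overlapped at the top, followed by Adk (22.9), Ada (6.60), Adora2b (3.32), Entpd1 (0.434), Adora2a (0.258) and Dpp4 (0.0913). In HPC Slc29a1 (60.2) and Adk (54.3) overlapped at the top, Dpp4 (11.7) overlapped Ada (8.96), Adora2a (1.33) overlapped Entpd1 (1.01), and Nt5e (0.276) and Adora2b (0.122) came last without overlap.

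Between the phases, where 2.48% of all genes were called (1.48% higher and 0.997% lower), 1 of the 6 tested members rose, 1 fell and 4 were not called. Slc29a1 rose in median LP against early LP by 0.31 (SE 0.07, adjusted p = 0.0341). Entpd1 fell by 0.79 on the log2 scale (SE 0.17, adjusted p = 0.038). Both calls ended when any single LP library was left out, at adjusted p = 0.0727 to 0.149 for Slc29a1 and 0.0623 to 0.17 for Entpd1, and that of Slc29a1 also without HPC 2 (adjusted p = 0.0506) and with upper quartile scaling (adjusted p = 0.0539). In limma on log2(FPKM + 1) they had adjusted p = 0.134 and 0.116. Ada was not called at -0.36 (adjusted p = 0.0963), though the groups did not overlap, and it was called without HPC 3 (adjusted p = 0.038). Adk (-0.16, adjusted p = 0.446) and Dpp4 (0.06, adjusted p = 0.972) overlapped between the phases.

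In the lists that follow, a pair of log2 changes gives early LP against HPC and then median LP against HPC. Each count of calls against HPC is to be read beside the shares over all tested genes. These were 35.3% higher and 37.9% lower in early LP, and 36.0% higher and 37.7% lower in median LP. Surface enzymes were read from a list of 13, of which 11 are in the table and 6 passed the filter on low counts, the members Nt5e, Entpd1 and Dpp4 among them. Leaving out Nt5e, 2 rose, 2 fell and 1 was not called in early LP, and 1 rose, 3 fell and 1 was not called in median LP. Of the falls, Dpp4 in both phases and Entpd1 in median LP are the members described above, and Enpp1 is the only other gene. The median log2 change of these 5 was -0.32 in early LP and -0.63 in median LP, against -0.04 over all genes in each. Acpp, a phosphatase whose membrane form also cuts AMP to adenosine, stood at 16.6, 16.1 and 16.8 CPM in early LP and 18.1, 18.5 and 15.5 CPM in median LP, against 3.69, 3.02 and 3.04 CPM in HPC. It rose by 2.34 (SE 0.12, adjusted p = 4.94e-09) in early LP and 2.42 (SE 0.12, adjusted p = 3.53e-09) in median LP, the only gene of the 5 tested that was called higher in both phases. Enpp1, which cuts ATP to AMP and pyrophosphate, fell by 0.56 (adjusted p = 0.000964) and 0.63 (adjusted p = 0.000421). Bst1, which forms cyclic ADP-ribose, rose in early LP by 1.00 (SE 0.30, adjusted p = 0.0101) and was not called in median LP at -0.07 (adjusted p = 0.857), which was 0.15 without HPC 3. Entpd2, Entpd3, Enpp3, Alpl and Cd38 were too low for the filter, with at most 23 fragments in any library, and Enpp3 had 1 fragment in all LP libraries, against 10 to 12 per HPC library.

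Of the 7 nucleoside carriers, with the member Slc29a1 among them, 4 passed the filter, and 0 rose, 2 fell and 2 were not called in early LP, while 1 rose, 1 fell and 2 were not called in median LP. The 0 that rose in early LP in edgeR was also 0 at an unadjusted p under 0.05, in DESeq2 and in limma. Their median log2 change was -0.30 in early LP and -0.07 in median LP. Slc28a2, which pulls purine nucleosides into the cell with sodium, stood at 14.3 ± 1.01 CPM in early LP and 7.88 ± 0.729 in median LP, against 64.0 ± 5.12 in HPC (SD, n = 3 each). It fell by 2.16 (SE 0.09, adjusted p = 1.14e-09) in early LP, by 3.02 (SE 0.10, adjusted p = 9.91e-11) in median LP, and by 0.86 (SE 0.10, adjusted p = 0.0013) in median LP against early LP. Slc29a3, a carrier of lysosomes, rose in median LP by 0.23 (adjusted p = 0.0262), a call that ended without median LP 2, median LP 3 or HPC 3 (adjusted p = 0.0544, 0.106 and 0.083) and with upper quartile scaling (adjusted p = 0.106). Slc29a2 was not called (-0.22 in early LP, adjusted p = 0.0911, and -0.08 in median LP, adjusted p = 0.543), and passed in early LP without HPC 3 (adjusted p = 0.0387), with upper quartile scaling (0.0331) and in limma on log2(FPKM + 1) and log2(FPKM + 0.1) (0.0264 and 0.0296). Slc29a4, Slc28a1 and Slc28a3 were too low for the filter.

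Of 33 listed enzymes that handle adenosine and AMP inside the cell, with the members Ada and Adk among them, 27 passed the filter. In early LP 8 rose, 16 fell and 3 were not called, and in median LP 7 rose, 15 fell and 5 were not called. The median log2 change was -0.38 and -0.41, against -0.04 over all genes, and was the same with Nt5c1a, at 0 in HPC, set at its bound. Mtap, which salvages methylthioadenosine, had 1.24 ± 0.198 CPM in early LP and 1.13 ± 0.185 in median LP, against 62.1 ± 0.980 in HPC (SD, n = 3 each) and fell by 5.64 (SE 0.12, adjusted p = 4.97e-12) and 5.77 (SE 0.12, adjusted p = 4.69e-12). Pnp, which cuts inosine, the product of Ada, to hypoxanthine, rose by 1.05 and 1.10 (SE 0.06 each, adjusted p = 1.03e-08 and 6.32e-09), to 268 ± 5.70 CPM in early LP and 278 ± 3.97 in median LP, against 130 ± 0.374 in HPC. A similar copy, Pnp2, lies beside it, so the split of reads between the pair is uncertain. Aprt, which turns adenine to AMP, rose by 1.74 and 1.65 (SE 0.09 each), on chromosome 8, whose genes had a median of 0.53 and 0.51. Nt5c2, a cytosolic nucleotidase, fell by 1.35 and 1.51, and Ak3, a mitochondrial kinase of nucleotides, by 5.31 and 4.99, both in loci shared with another gene, which makes their counts uncertain.

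Of 8 listed genes for ATP release, the source of the substrate, 7 passed the filter, and 5 rose and 2 fell in early LP, while 3 rose, 1 fell and 3 were not called in median LP. The median log2 change was 0.54 and 0.24, and was the same with Gjb2, at 0 in median LP, set at its bound. Slc17a9, which loads ATP into vesicles, had 41.1 ± 2.07 CPM in early LP and 40.1 ± 0.225 in median LP, against 18.9 ± 1.01 in HPC (SD, n = 3 each), a rise of 1.12 and 1.08 (SE 0.07 each, adjusted p = 3.13e-08 and 4.15e-08). Panx1, a channel that lets ATP out, had 41.7 ± 1.81 CPM in early LP and 39.0 ± 1.60 in median LP, against 22.5 ± 0.975 in HPC, a rise of 0.89 and 0.79. Panx2, a related channel on chromosome 15 (median 0.53 and 0.51), had 28 and 39 fragments in early and median LP against 3 in HPC, ratios of 11.1 (exact 95% counting interval 3.42 to 57.0) and 13.9 (4.43 to 70.4). Calhm2 rose in early LP by 0.54 (adjusted p = 0.000552) and was not called in median LP (0.24, adjusted p = 0.0558). Gjb2, a connexin, had 2 fragments in early LP and 0 in median LP, against 67 in HPC. This made it at least 20.9-fold lower in median LP, with 3 fragments over the group as the floor. Gja1, another connexin, fell in early LP by 0.85 (adjusted p = 0.00316) and stood at 0.06 (adjusted p = 0.796) in median LP.

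The P2 receptors, which sense ATP and other nucleotides before they are cut, passed the filter for 8 of 15. In early LP 1 rose, 4 fell and 3 were not called, and in median LP 3 rose, 4 fell and 1 was not called, with medians of -0.65 and -0.37. P2rx7, an ATP-gated channel of myeloid cells, had 0.549 ± 0.104 CPM in early LP and 1.09 ± 0.140 in median LP, against 7.64 ± 1.40 in HPC (SD, n = 3 each), a fall of 3.78 (SE 0.23, adjusted p = 2.35e-08) and 2.80 (SE 0.20, adjusted p = 1.31e-07). P2rx1 fell by 2.59 and 3.15 and P2rx4 by 1.15 and 0.97. P2ry14, the receptor for UDP-glucose, fell by 6.03 and 5.61, in a locus the table shares among 8 genes, which leaves its count uncertain.

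Downstream of the receptors, 29 of 37 listed cyclic AMP components passed the filter, and 12 rose, 11 fell and 6 were not called in early LP, while 11 rose, 10 fell and 8 were not called in median LP. Their medians were 0.10 and -0.08, close to those of all genes. Adcy6, an adenylyl cyclase, fell by 3.29 and 3.25 (SE 0.09 each, adjusted p = 3.96e-11 and 4.14e-11), to 7.81 ± 0.955 and 8.02 ± 0.593 CPM in early and median LP, against 76.3 ± 2.04 in HPC. Adcy3, another cyclase, rose by 3.85 and 3.68 in a locus shared by 3 genes. Pde8a, which breaks down cyclic AMP, rose by 2.69 and 2.83, and Prkar2b, a regulatory subunit of protein kinase A, fell by 1.68 and 1.69. Of 15 listed targets of CREB, the factor that cyclic AMP activates, 13 passed the filter, and 2 rose, 8 fell and 3 were not called in early LP, while 1 rose, 9 fell and 3 were not called in median LP, with medians of -0.86 and -0.83. Pde4b and Pde4d, which break down cyclic AMP, fell by 2.32 and 2.16 and by 0.86 and 0.97, and Sik1, a kinase, by 1.45 and 1.34, whereas Ppargc1a, a coactivator of mitochondrial genes, rose by 3.54 and 3.14, to 1.33 ± 0.391 CPM in early LP and 1.01 ± 0.180 in median LP, against 0.110 ± 0.0276 in HPC. In median LP against early LP, 3 of the 13 fell, which were Fos, Fosb and Dusp1, and 10 were not called. Of all tested genes, 0.997% were called lower there. Fos, a transcription factor, had 133, 113 and 179 CPM in early LP and 38.9, 35.5 and 28.4 CPM in median LP, against 354, 142 and 252 CPM in HPC, a wide spread within HPC, and the fall in median LP against early LP was 2.04 (SE 0.28, adjusted p = 0.00329).

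Hypoxia-inducible factors are known to raise Nt5e and Adora2b in several tissues. Their own genes, those of enzymes that control them, and Sp1, which binds GC boxes, were listed. Their part in the levels of Nt5e and Adora2b was not tested, and the activity of their proteins was not measured here. Of 10, all passed the filter, and 5 rose, 3 fell and 2 were not called in early LP, while 6 rose, 1 fell and 3 were not called in median LP, with medians of 0.30 and 0.39. Hif1a had 222 ± 7.90 CPM in early LP and 261 ± 6.34 in median LP, against 82.5 ± 10.5 in HPC (SD, n = 3 each), a rise of 1.43 (SE 0.09, adjusted p = 3.08e-08) and 1.66 (SE 0.09, adjusted p = 8.1e-09). Epas1, which encodes HIF-2 alpha, had 1.39, 1.38 and 1.25 CPM in early LP and 2.44, 2.24 and 2.64 CPM in median LP, against 0.0419, 0.0838 and 0.156 CPM in HPC. It rose by 3.74 (SE 0.35, adjusted p = 1.38e-06) and 4.60 (SE 0.32, adjusted p = 9.6e-08), and the step between the phases was 0.86 (adjusted p = 0.0541). Egln3 and Egln1, prolyl hydroxylases that mark these factors for decay, rose by 1.71 and 1.68 and by 1.12 and 1.04, the second on chromosome 8, and Hif3a, a related factor, fell by 2.58 and 2.19. Between the phases 0 of the 10 were called in edgeR, DESeq2 or limma, with 3 higher and 1 lower at an unadjusted p under 0.05 in edgeR.

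**Figure D4:**
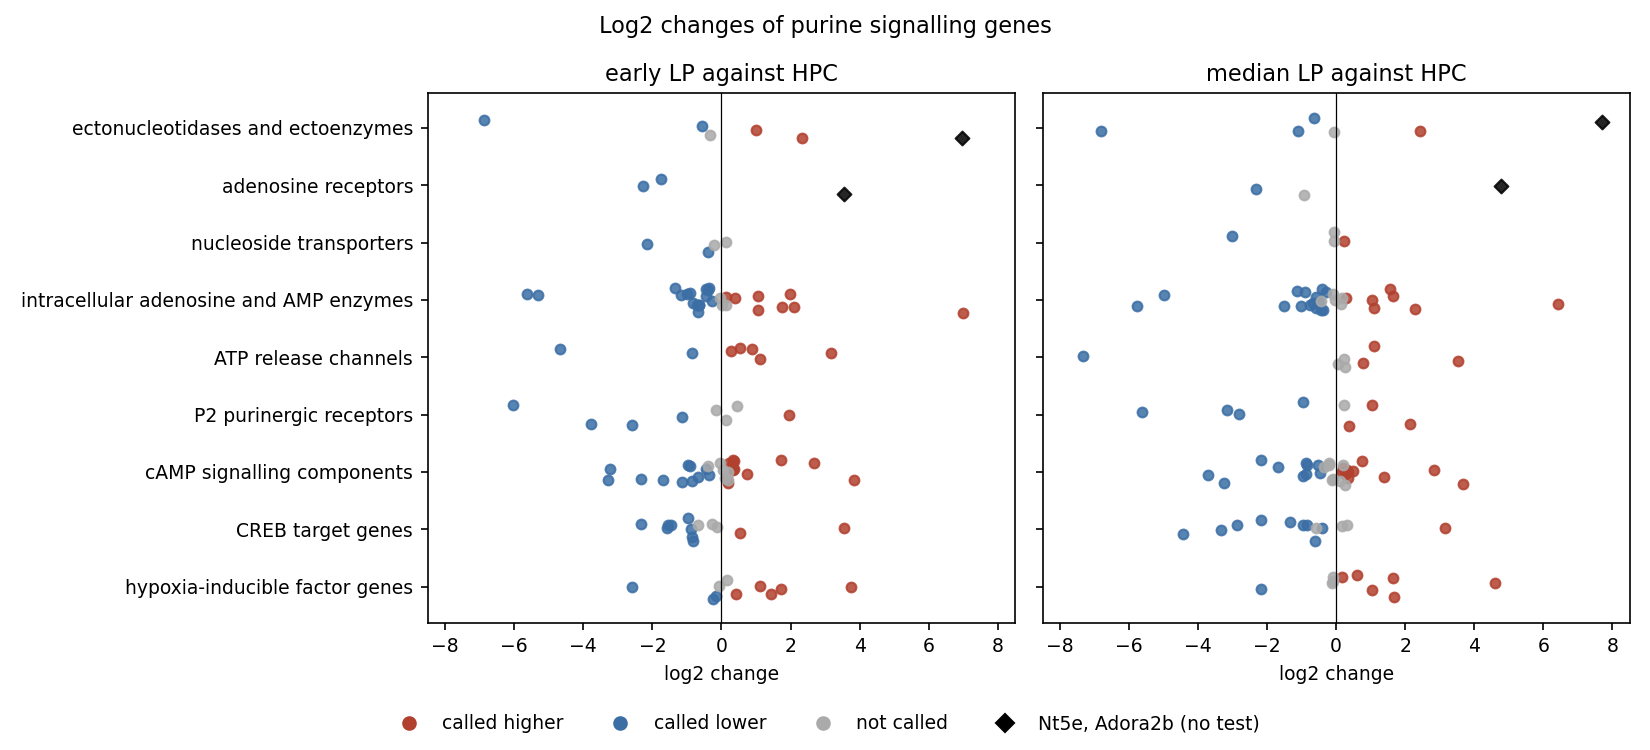
Log2 changes of the genes of 9 lists that passed the filter, for early LP against HPC (left) and median LP against HPC (right), with 1 point per gene, red for called higher, blue for called lower, grey for not called and black diamonds for Nt5e and Adora2b, which were not tested. Nt5e (6.96 and 7.69) and Adora2b (3.56 and 4.79) lie at the right, and most lists hold points on both sides of 0.

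Genes with a profile like Nt5e over the 9 libraries were sought among 9986 genes with at least 5 CPM in their highest group. Symbols that begin with Gm and a digit or end in Rik were not among these. The 5 genes nearest by the distance of centred log2 CPM were named. They were Tdrd9, a piRNA helicase of the germ line (distance 0.601, 67.9 CPM in early LP and 93.4 in median LP, against 0.381 in HPC), Spp1, which encodes osteopontin (0.705, with 521 CPM in early LP and 780 in median LP, against 3.28 in HPC), Dmc1, the meiotic recombinase (0.761, with 27.2 CPM in early LP and 34.5 in median LP, against 0.206 in HPC), Wbp2nl (0.882) and Cyp2c44 (1.07). For Adora2b they were Lilrb4, an inhibitory receptor of myeloid cells (0.878, with 68.9 CPM in early LP and 135 in median LP, against 4.59 in HPC), Ier5l (1.05), BC100530 (1.14), Nrbp2 (1.19) and Trem1, an activating receptor of myeloid cells (1.28, with 16.2 CPM in early LP and 30.7 in median LP, against 1.78 in HPC). The 2 targets are themselves unlike in level, with 152 ± 4.74 CPM for Nt5e and 2.62 ± 0.236 for Adora2b in early LP (SD, n = 3 each).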

How the data were processed

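The 9 libraries were made with an Illumina TruSeq kit, per the labels' protocols. Per the submitters' processing notes, TopHat2 2.0.6 and the build mm10 were used. The quantifier, its annotation release and its strand setting are not given in the sources. The authors deposited FPKM and estimated counts for 21388 transcripts, per the file headers. The estimated counts are scaled to a common depth, and 89.6 to 91.3% of low values were whole within 0.05 after division by 1 step per library, which gave the recovered fragments. Coordinates are those of the table, raised by 1, and no sample column was left unused.

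Transcripts were summed by symbol, rounded, and tested with edgeR 4.0.16 (R 4.3.3; TMM, filterByExpr, 1 fit on 9 libraries, Benjamini-Hochberg). The fit kept 12837 genes, left out 3700, and had a biological coefficient of variation of 9.81%. It was checked on simulated counts in which few genes changed, and only in median LP. Most genes were called against HPC, so the check cannot give the error rate of those comparisons. The alternatives were RLE and upper quartile scaling, no filter, recovered fragments, a replicate block, a length slope covariate, DESeq2 1.42.0, limma 3.58.1 on log2(FPKM + 1) and log2(FPKM + 0.1), and each library left out. The members and lists were chosen with earlier results of these data known. Named were all members, up to 4 called genes per list and comparison by the smallest adjusted p, every adenosine receptor, nucleoside carrier and surface enzyme of the lists that the table holds, and the 5 nearest profiles of Nt5e and of Adora2b.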

Additional observations from a re-analysis of the deposited data

Results flagged for a closer look

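Among the 8 members and the named genes of the purine, cyclic AMP and hypoxia lists, 8 differed between the 2 phases of PML-RAR leukemia. The test was edgeR's test of median LP against early LP, which is the difference of their changes against the shared HPC libraries. Genes outside the members, receptors, carriers and surface enzymes were named only because they were called in some comparison. The 8 is thus a list and no share to set beside the 2.48% of all 12837 tested genes called here. Higher in median LP were Slc29a1 (log2 0.31, median LP 101 ± 3.50 CPM and early LP 81.1 ± 3.58 CPM; SD, n = 3 each), Gja1 (0.91, with 20.6, 15.3 and 10.2 CPM in median LP and 7.53, 8.78 and 8.29 CPM in early LP) and Ak4, a mitochondrial adenylate kinase (0.43, with 17.5 ± 0.640 CPM in median LP and 12.9 ± 0.629 CPM in early LP). Lower in median LP were Entpd1 (-0.79), Slc28a2 (-0.86), Fos (-2.04), Fosb (-2.89) and Dusp1 (-2.67, with 9.19, 8.35 and 4.62 CPM in median LP and 43.3, 34.7 and 63.8 CPM in early LP). Fos and Fosb are transcription factors and Dusp1 a phosphatase, all known as immediate early genes. The calls of Slc29a1, Entpd1, Ak4 and Fosb ended without any 1 of the 6 LP libraries, and that of Gja1 without any of them except median LP 3. Those of Slc29a1, Ak4 and Gja1 also ended without HPC 2. In limma with either pseudocount the calls of Slc29a1, Entpd1, Ak4 and Gja1 ended, as that of Fosb did with a pseudocount of 1, and that of Gja1 ended with upper quartile scaling (adjusted p = 0.0509) and on recovered fragments (adjusted p = 0.0516). The calls of Slc28a2, Fos and Dusp1 kept the threshold in every alternative run.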

How the results depend on the processing

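Counts of genes and of tested members called against HPC stayed within 1.5 times of the values given, in all alternatives. The 318 genes called between median LP and early LP were less stable, with 192 in the fit with the replicate block, 178 in limma with either pseudocount, 558 in DESeq2, 1261 with the length slope as a covariate and 105 to 687 when 1 library was left out, the highest without HPC 3. Of the 6 tested members, 2 were called there in the main fit. The number called was 1 with upper quartile scaling, 0 in the replicate block and 0 in limma with either pseudocount. With 1 library left out it was 0 to 3, the highest without HPC 3, where Ada was called as well. Same-numbered libraries did not deviate together (r = -0.119 to 0.07). Such values cannot show whether libraries were handled in numbered sets, and the labels do not say. In the replicate block, the calls between the phases of Ak4 (adjusted p = 0.0938), Gja1 (0.0807), Slc29a1 (0.0743) and Entpd1 (0.0812) ended. For 98 gene results, 1658 of 1742 alternative values were counted as unchanged. For tested genes this meant the same direction and call. For Nt5e and Adora2b, which have no call, it meant the same direction and a shift below the combined SD of the 2 groups. Signs turned for small changes that were not called. These were Ada in early LP (-0.12 to 0.037 with 1 library left out), Bst1 in median LP (-0.28 to 0.15 with 1 library left out, above 0 without HPC 3), and, in median LP against early LP, Adora2a (-0.15 to 0.17, above 0 without early LP 3) and Dpp4 (-0.064 on recovered fragments, -4.14e-05 and -0.012 in limma, -0.58 to 0.65 with 1 library left out). On the log2(FPKM + 1) scale, which understates the change of low genes, Nt5e stood at 4.75 and 5.43 and Adora2b at 1.12 and 1.93 against HPC. Depth limits Adora2b in HPC (17 fragments), Adora1 and Adora3. It also limits Epas1 (1 to 4 fragments per library) and Ppargc1a (2 or 3) in HPC, and Adora2a (10 to 16) and Dpp4 (7 to 26) in LP. The cause of these shifts was not tested.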
